A study of Komagataella phaffii with 26 samples.

Results

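The genes described here are 6 of the 5040 gene models of *Komagataella phaffii*, chosen by their identity as regulators of nitrogen use or as proteins that take up or assimilate ammonium and amino acids. *GLN3* (PAS_chr1-4_0395) and *GAT1* (PAS_chr4_0626) encode transcriptional activators of genes under nitrogen catabolite repression. *MEP1* (PAS_chr2-2_0391) encodes an ammonium permease and *GDH3* (PAS_chr1-1_0107) the glutamate dehydrogenase that depends on NADP(+). *GAP1* (PAS_chr1-4_0479) encodes a general amino acid permease, and *CAN1* (PAS_chr1-4_0601) an arginine permease. The first 5 were found by locus tag and *CAN1* by its gene name. Gene names are those of matches in *Saccharomyces cerevisiae*, as the authors' annotation gives them. That annotation covers only genes that the authors called changed in some condition on these same libraries, and all 6 genes are among them.

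RNA was sequenced from 26 libraries of the wild-type strain X-33, a methylotrophic yeast widely used to produce proteins. It was grown in YP medium (yeast extract and peptone) with glycerol or glucose as carbon source. The cells were then centrifuged and resuspended in fresh medium with TAPS as pH buffer, at pH 5.5 for time zero or at alkaline pH. Cells were shifted from pH 5.5 to an alkaline medium in 3 courses (glycerol to pH 8.0, glycerol to pH 8.2, glucose to pH 8.0), and each course was followed at 0, 15, 30 and 60 min. Each of the 12 groups holds 2 libraries, which the study calls biological replicates, with the exception of the 15 min group on glycerol at pH 8.0 (4 libraries). The samples of time zero were taken from fresh pH 5.5 medium at once, without a later sample of cells held at that pH, so a change from time zero also holds any effect of handling and time. Each stressed culture was sampled at all 3 later times, so the libraries are not all independent, and the p-values below take them as if they were. The 3 later times of a course are compared with the same time zero libraries.

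Yeasts take up ammonium through permeases of the Mep family and build it into glutamate and glutamine. In *S. cerevisiae*, while a preferred nitrogen source is at hand, the GATA factors Gln3 and Gat1 are kept from activating the genes for poorer sources, which is called nitrogen catabolite repression. *GAP1* and the *MEP* genes are textbook targets of these factors in that species. Permeases such as Gap1 and Can1 move amino acids together with protons, so they work on the proton gradient across the plasma membrane.

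Depth, worked back from the steps of the RPKM values, was 16.3 M to 20.4 M reads a library (M, 1000000 reads, median 18.6 M). This is the total to which RPKM is scaled, and the paper gives a higher average of reads per sample. All 6 genes were read in every library. The values are RPKM (reads per kilobase of gene model and 1000000 mapped reads), so levels can be set beside each other between genes. The fewest reads behind a value were 25 for *GLN3*, 48 for *GAT1*, 512 for *MEP1*, 519 for *GDH3*, 1694 for *GAP1* and 2874 for *CAN1*. RPKM is a share of the reads of a library, so fewer cells and less RNA in each cell cannot be told apart, and a change is one relative to the other genes. Between the libraries of a group of 2, 1 to 9 of 5034 genes differed at least 2-fold in the groups of glycerol at pH 8.0, of glucose and of time zero of the pH 8.2 course, and 60, 65 and 44 genes did so at pH 8.2 after 15, 30 and 60 min. The libraries of the glycerol pH 8.0 course carry another series of codes than the rest, so that course and that set of libraries cannot be told apart.

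Alkalinization was followed by lower mRNA of all 6 genes at every time in every course. Calls asked for 3 things at once: an adjusted p below 0.05 (limma with Benjamini-Hochberg adjustment over 5034 genes), a p below 0.01, and a change of at least 2-fold. *GLN3*, *GAT1*, *MEP1* and *GDH3* were called lower in all 9 comparisons with time zero, *GAP1* in 4 of 9 and *CAN1* in 0 of 9. All 54 differences passed the adjusted p alone. Small p-values were common, since 2104 to 3121 of the 5034 genes had an unadjusted p under 0.05 in limma in these comparisons. In none of the 54 did the stressed libraries overlap with those of time zero. The shares of all genes past the adjusted p alone and without such overlap were not counted. Neither count therefore sets the 6 genes apart from the rest.

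On glycerol at pH 8.0, 5 of 6 genes were called after 15 min, when 5.58% of all genes tested were called in either direction and 2.44% were called lower. After 30 min it was 4 of 6 (5.82% of all genes), and after 60 min 5 of 6 (5.76%). At pH 8.2, 5 of 6 were called after 15 min (5.7% of all genes), 4 of 6 after 30 min (6.67%) and 4 of 6 after 60 min (8.28%). On glucose, 4 of 6 were called after 15 min (5.42%), 4 of 6 after 30 min (5.82%) and 5 of 6 after 60 min (4.67%). Each call of the 6 genes was a fall, and over these comparisons 1.45% to 2.82% of all genes were called lower. The median log2 change of the 6 genes lay between -3.50 and -1.97, while that of all genes tested lay between -0.08 and 0.13. The genes were chosen with earlier results of these data known, so these counts describe them and are no independent evidence of their direction.

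**Figure D1:**
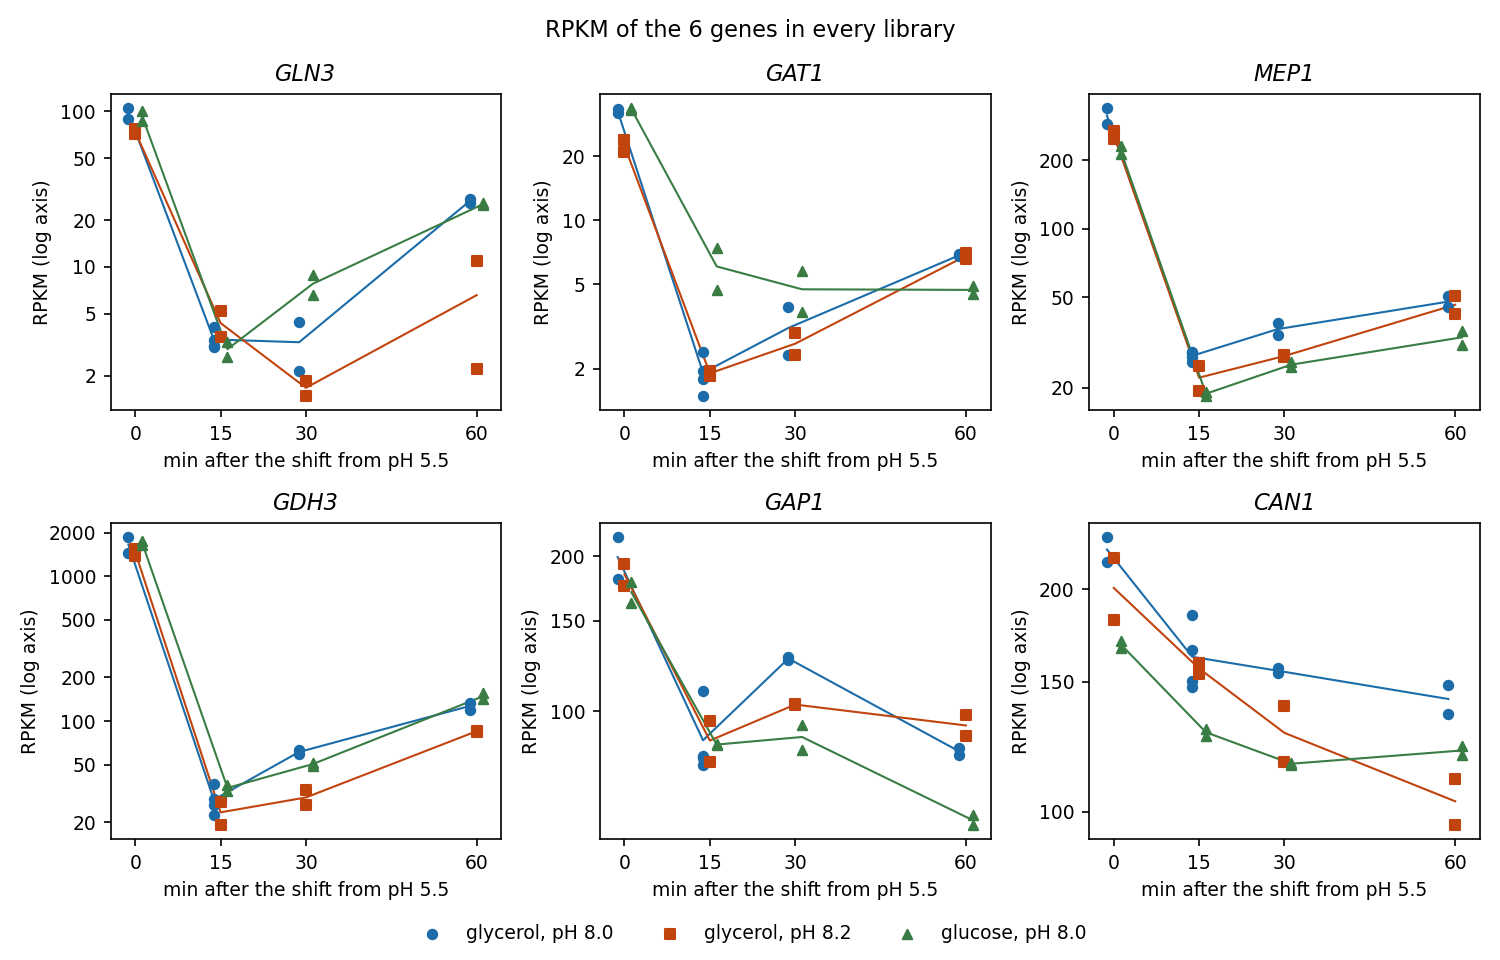
RPKM of the 6 genes (log axis, its range differs between panels) against minutes after the shift from pH 5.5, 1 point for each library and a line through the group means, in 3 courses told apart by colour and marker. *GLN3*, *GAT1*, *MEP1* and *GDH3* drop within 15 min by a factor of 5.49 or more in mean RPKM, while *GAP1* and *CAN1* drop by a factor of at most 2.27 by then.

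*GLN3* lies on chromosome 1, from 2139069 to 2140082 on the plus strand of the GS115 assembly ASM2700v1, and its gene model is 1014 bp long. Its product is a zinc-finger activator of the GATA family. At time zero of the glycerol pH 8.0 course *GLN3* stood at 105 and 89.6 RPKM. The 4 libraries of 15 min held 3.41, 3.05, 3.11 and 4.10 RPKM, those of 30 min 2.15 and 4.41, and those of 60 min 25.6 and 27.4. The mRNA was thus at 3.51% of its time zero mean after 15 min, at 3.37% after 30 min and at 27.2% after 60 min. The log2 changes were -4.48 (SE 0.32, limma adjusted p = 1.23e-09), -4.57 (SE 0.37) and -1.83 (SE 0.37, limma adjusted p = 0.000481). The log2(RPKM + 1) scale understates changes of genes that fall this low: the ratio of mean RPKM at 15 min was 28.5, while the fitted change amounts to 22.3-fold.

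In the glucose course *GLN3* started at 99.7 and 86.2 RPKM. It stood at 3.29 and 2.63 RPKM after 15 min, at 8.93 and 6.64 after 30 min and at 25.6 and 25.1 after 60 min. Here the lowest libraries were those of 15 min, and the libraries of 60 min lay close to those of glycerol at pH 8.0 (25.6 and 27.4). The log2 changes on glucose were -4.57, -3.43 and -1.83.

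The pH 8.2 course started at 71.2 and 76.3 RPKM of *GLN3*. The libraries of 15 min held 3.54 and 5.17 RPKM, those of 30 min 1.86 and 1.49, and those of 60 min 10.9 and 2.22. The 2 libraries of 60 min thus disagreed, with 204 reads in the first and 40 in the second, and the first lay above all libraries of 15 and 30 min while the second lay within their range. The log2 change was -3.82 after 15 min, -4.81 after 30 min and -3.59 (SE 0.37, limma adjusted p = 1.79e-07) after 60 min. Without the first library of 60 min the last of these was -4.54, and without the second -2.64.

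*GAT1*, the gene of another GATA activator, lies on chromosome 4 from 1218492 to 1220339 on the minus strand (1848 bp) and had the lowest level of the 6 genes at time zero. It fell on glycerol at pH 8.0 from 33.4 and 31.8 RPKM to 1.497, 1.96, 1.80 and 2.41 RPKM after 15 min. It stood at 2.32 and 3.91 RPKM after 30 min and at 6.91 and 6.77 after 60 min. The log2 changes were -3.53 (SE 0.17, limma adjusted p = 6.87e-12), -3.05 and -2.10, and the libraries of 60 min lay above all those of 15 and 30 min.

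At pH 8.2 *GAT1* started lower, at 23.8 and 20.9 RPKM. It stood at 1.86 and 1.95 RPKM after 15 min, at 2.32 and 2.94 after 30 min and at 6.56 and 7.04 after 60 min. These are the levels of the pH 8.0 course to within the spread of the libraries, from a lower start, and the log2 changes were -3.00, -2.69 and -1.58 (SE 0.20, limma adjusted p = 2.77e-06). On glucose *GAT1* went from 33.7 and 32.9 RPKM to 4.69 and 7.44 after 15 min, 3.69 and 5.78 after 30 min and 4.93 and 4.48 after 60 min. The fall on glucose was thus smaller at 15 min than on glycerol, to 18.2% of time zero against 5.89%, and the libraries of the 3 later times overlapped. Its log2 changes on glucose were -2.31 (SE 0.20, limma adjusted p = 4.48e-08), -2.60 and -2.59.

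*MEP1* lies on chromosome 2 from 1655878 to 1657326 on the minus strand (1449 bp). In the glycerol pH 8.0 course it fell from 290 and 340 RPKM to 25.97, 27.4, 28.9 and 28.5 RPKM after 15 min. It held 34.0 and 38.4 RPKM after 30 min and 45.3 and 50.5 after 60 min. The permease mRNA was at 8.79% of time zero after 15 min, and each later time lay above the one before with no overlap of libraries. The log2 changes were -3.46 (SE 0.10, limma adjusted p = 1.40e-15), -3.08 and -2.69.

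At pH 8.2 *MEP1* went from 269 and 248 RPKM to 25.03 and 19.3 after 15 min, 27.3 and 27.9 after 30 min and 42.1 and 50.7 after 60 min. On glucose it went from 232 and 213 RPKM to 19.2 and 18.5, then 25.9 and 24.7, then 35.7 and 31.0. Both courses gave log2 changes of -3.49 after 15 min, and the share of time zero left at that time was 8.58% at pH 8.2 and 8.48% on glucose. Of the 6 genes, *MEP1* had the narrowest range of fitted falls at 15 min between courses, -3.49 to -3.46. After 60 min the log2 change was -2.46 at pH 8.2 and -2.70 on glucose (SE 0.12 each, limma adjusted p = 4.27e-12 and 1.40e-12).

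*GDH3* lies on chromosome 1 from 752478 to 753851 on the minus strand (1374 bp). Its enzyme joins ammonium to 2-oxoglutarate to make glutamate, with NADPH as reductant. It was the most abundant of the 6 mRNAs at time zero, ranking 115 to 126 of 5040 genes by mean RPKM. On glycerol at pH 8.0 *GDH3* went from 1451 and 1863 RPKM to 28.9, 22.5, 36.8 and 26.3 after 15 min. It held 59.6 and 62.7 RPKM after 30 min and 134 and 120 after 60 min. That is 1.73%, 3.69% and 7.67% of the time zero mean, and the log2 changes were -5.82 (SE 0.15, limma adjusted p = 3.21e-16), -4.73 and -3.69.

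At pH 8.2 *GDH3* fell from 1551 and 1382 RPKM to 27.7 and 19.1 after 15 min and stood at 33.2 and 26.2 after 30 min and at 86.0 and 84.2 after 60 min. The log2 changes at pH 8.2 were -5.93, -5.59 and -4.09 (SE 0.18 each). On glucose it went from 1763 and 1649 RPKM to 33.0 and 36.0, then 51.6 and 49.2, then 155 and 142, with log2 changes of -5.59, -5.05 and -3.51. Ordered by log2 change over the 5034 genes tested, *GDH3* ranked between the lowest and the third lowest in each of the 9 comparisons. By that order *MEP1* ranked between 5 and 18 and *GLN3* between 2 and 29.

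*GAP1* lies on chromosome 1 from 2285006 to 2286736 on the plus strand (1731 bp). Its permease accepts most amino acids. With glycerol at pH 8.0 it went from 181 and 218 RPKM to 81.8, 78.7, 109 and 81.1 after 15 min. It stood at 126 and 127 RPKM after 30 min and at 82.1 and 84.9 after 60 min, so its level was higher at 30 min than at 15 and 60 min with no overlap. The log2 changes were -1.18 (SE 0.11, limma adjusted p = 5.82e-08), -0.65 and -1.24. The third library of 15 min, at 109 RPKM, stood apart from the other 3, and without it the change at 15 min was -1.29.

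At pH 8.2 *GAP1* went from 175 and 194 RPKM to 95.7 and 79.5 after 15 min, 103 and 103 after 30 min and 98.1 and 89.4 after 60 min. The log2 changes at pH 8.2 were -1.07, -0.83 and -0.97, and only the first reached 2-fold. That first call fell short of 2-fold without the second library of time zero (-0.9995) or without the second library of 15 min (-0.94). The value after 60 min did pass 2-fold in 4 of the 14 other settings, with median-ratio scaling (-1.09), with all 4 glycerol libraries of time zero as the baseline (-1.02), and without the first library of time zero or of 60 min (-1.04 each). On glucose it went from 162 and 179 RPKM to 86.1 and 86.0, then 84.0 and 94.1, then 62.6 and 60.0. The lowest *GAP1* libraries of all 26 were thus those of glucose after 60 min, where the log2 change was -1.46 (SE 0.13, limma adjusted p = 4.47e-08). The changes on glucose at 15 and 30 min were -0.98 and -0.93, just under 2-fold.

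*CAN1* lies on chromosome 1 from 2530632 to 2532317 on the minus strand (1686 bp). Its values on glycerol went at pH 8.0 from 218 and 235 RPKM to 150, 148, 185 and 166 after 15 min, and it stood at 154 and 156 after 30 min and at 136 and 149 after 60 min. At pH 8.2 it went from 182 and 220 RPKM to 153 and 159, then 117 and 139, then 111 and 96.0. On glucose it went from 170 and 167 RPKM to 127 and 129, then 116 and 116, then 122.8 and 119.3. The arginine permease thus kept 51.4% to 77.8% of its time zero level. Its log2 changes lay between -0.95 (pH 8.2, 60 min, SE 0.11, limma adjusted p = 6.87e-07) and -0.35 (pH 8.2, 15 min, SE 0.11, limma adjusted p = 0.0129). The change at pH 8.2 after 15 min lost the adjusted p in 4 of 14 other settings, in which its adjusted p reached 0.195. That at 60 min passed 2-fold in 4 of 14, among them without the first library of time zero (-1.09) and without the first of 60 min (-1.05).

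**Figure D2:**
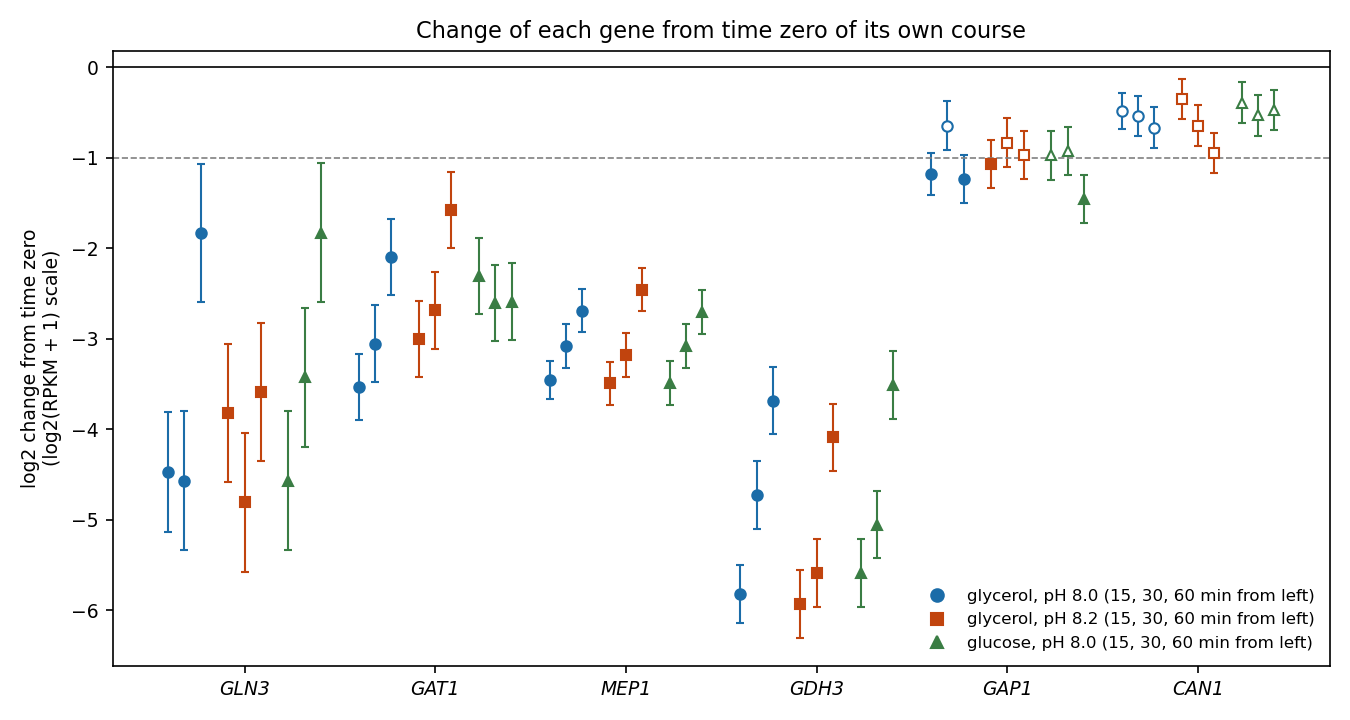
Log2 change of each gene from time zero of its own course on the log2(RPKM + 1) scale, with bars for the 95% interval of the fit; filled marks were called changed, open marks were not, and the dashed line marks a 2-fold fall. All 9 marks of *GLN3*, *GAT1*, *MEP1* and *GDH3* are filled, 4 of 9 are for *GAP1* and 0 of 9 for *CAN1*.

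Between 15 and 60 min part of the fall was regained by some genes. *GDH3* rose in all 3 courses, by 2.13 (SE 0.15, limma adjusted p = 2.37e-09) on glycerol at pH 8.0, by 1.84 (SE 0.18) at pH 8.2 and by 2.08 (SE 0.18) on glucose, as log2 changes. *GLN3* rose by 2.64 (SE 0.32, limma adjusted p = 1.43e-06) on glycerol at pH 8.0 and by 2.74 (SE 0.37) on glucose. At pH 8.2 its change was 0.23 (95% interval -0.54 to 0.99). That value was -0.72 without the first library of 60 min and 1.17 without the second.

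*GAT1* rose by 1.43 (SE 0.17, limma adjusted p = 1.65e-06) on glycerol at pH 8.0 and by 1.42 (SE 0.20) at pH 8.2, while its change on glucose was -0.28 (95% interval -0.70 to 0.14). *MEP1* passed the adjusted p in all 3 courses, with 0.77 and 0.79 at pH 8.0 on glycerol and glucose and 1.04 (SE 0.12, limma adjusted p = 4.34e-07) at pH 8.2, of which only the last was called. That call fell short of 2-fold in 4 of 13 other settings, among them without the second library of 15 min (0.86) and without the second of 60 min (0.91). The amino-acid permease genes were not called: *GAP1* gave -0.06, 0.10 and -0.48 (the last on glucose, adjusted p = 0.0048 with limma), and *CAN1* -0.18, -0.60 (pH 8.2, adjusted p = 9.01e-05 with limma) and -0.08. In all, 3 of 6 genes were called on glycerol at pH 8.0 (5.8% of all genes), 3 of 6 at pH 8.2 (10.3%) and 2 of 6 on glucose (4.97%), each of them upwards. Of all genes, 4.55%, 7.87% and 3.48% were called upwards in these 3 comparisons. After 60 min none of the 6 genes had its libraries back in the range of time zero.

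Before the shift, glucose cultures were compared with glycerol cultures (the average of the time zero groups of both courses), and 0 of 6 genes were called, against 1.25% of all genes, while 2 of 6 had an unadjusted p under 0.05 in limma. *MEP1* was lower on glucose by a log2 value of -0.36 (95% interval -0.57 to -0.15, limma adjusted p = 0.0157) and *CAN1* by -0.33 (95% interval -0.53 to -0.14, limma adjusted p = 0.0154). Both are under 2-fold, and over the other settings their adjusted p reached 0.190 and 0.142. The other 4 genes lay between -0.17 (*GAP1*) and 0.29 (*GAT1*).

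The 2 glycerol courses share medium and pH at time zero and were compared there at the adjusted p alone. Of all genes 16.5% passed, and 0 of the 6 did, with 2 of 6 at an unadjusted p under 0.05 in limma. These were *GAT1*, at -0.53 in the pH 8.2 course relative to the pH 8.0 course (95% interval -0.95 to -0.11, limma adjusted p = 0.0763), and *MEP1*, at -0.28 (95% interval -0.52 to -0.04, limma adjusted p = 0.0998). With a pseudocount of 5 *GAT1* passed (-0.46, limma adjusted p = 0.013).

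Over all 12 groups, the 3 groups of time zero had the highest means for each of the 6 genes. For *GLN3*, the groups of 60 min on glycerol at pH 8.0 and on glucose came next (26.5 and 25.4 RPKM), with overlapping libraries, and the last was pH 8.2 after 30 min (1.67 RPKM), which did not overlap with the group above it. For *GAT1* the ranks 9 to 12 were the glycerol groups of 30 and 15 min (3.12, 2.63, 1.92 and 1.91 RPKM), and each overlapped with the next. For *MEP1* the 3 groups of time zero did not overlap with each other (315, 258 and 222 RPKM), and glucose after 15 min was lowest at 18.8 RPKM. For *GDH3* the 3 groups of 60 min came after those of time zero, in the order glucose (149), glycerol at pH 8.0 (127) and pH 8.2 (85.1 RPKM), with no overlap. For *GAP1* the groups at ranks 6 to 10, between 93.8 and 86.1 RPKM, each overlapped with the next, and glucose after 60 min was lowest (61.3 RPKM). For *CAN1* the lowest group was pH 8.2 after 60 min (103 RPKM). From the highest to the lowest group mean, the ratio was 72.9 for *GDH3*, 58.2 for *GLN3*, 17.5 for *GAT1*, 16.7 for *MEP1*, 3.25 for *GAP1* and 2.19 for *CAN1*.

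Whether a stronger shift changed the response was asked as a difference of differences, the change at pH 8.2 minus the change at pH 8.0, called at the adjusted p alone. At 15, 30 and 60 min 0 of 6 genes were called, and 0% of all genes were, although 587, 371 and 712 of all genes had an unadjusted p under 0.05 in limma. *GLN3* after 60 min gave -1.76 (SE 0.52, 95% interval -2.84 to -0.67, limma adjusted p = 0.111). This value turns on the libraries of 60 min: it was -2.70 (limma adjusted p = 4.39e-05) without the first one and -0.81 without the second. With all 4 glycerol libraries of time zero as the baseline it was -2.15 (limma adjusted p = 0.00305).

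*GDH3* after 30 min gave -0.86 (SE 0.25, 95% interval -1.39 to -0.34, limma adjusted p = 0.42), and -1.03 (limma adjusted p = 0.00653) against all 4 libraries of time zero. *CAN1* after 60 min gave -0.28 (95% interval -0.60 to 0.04, limma adjusted p = 0.412), and it too passed with that baseline (-0.46, limma adjusted p = 0.0227). For *MEP1* the difference lay between -0.10 and 0.23 at the 3 times and its intervals between -0.44 and 0.57, so a difference of 2-fold lay outside all 3. The course at pH 8.2 cannot be told apart from its set of libraries here.

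The change on glucose minus the change on glycerol, both at pH 8.0, asked whether the carbon source mattered. At 15 min 1 of 6 genes passed the adjusted p, against 6% of all genes. This was *GAT1*, whose fall was smaller on glucose by a log2 value of 1.23 (SE 0.27, 95% interval 0.67 to 1.78, limma adjusted p = 0.0111). The glucose libraries, at 4.69 and 7.44 RPKM, lay above the 4 glycerol libraries, at 1.497 to 2.41. Over 18 other settings the adjusted p lay between 0.00531 and 0.0919. It missed 0.05 without the first glycerol library of time zero (1.19, limma adjusted p = 0.0544) and without the second glucose library of 15 min (0.94, limma adjusted p = 0.0919).

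After 30 min 0 of 6 genes passed (1.29% of all genes) and after 60 min 0 of 6 (5.9%), with 1 and 0 of 6 at an unadjusted p under 0.05 in limma. For *GAT1* the difference was 0.45 (95% interval -0.15 to 1.05) after 30 min and -0.49 (95% interval -1.09 to 0.11) after 60 min. For *GLN3* it was 1.14 (95% interval 0.06 to 2.22, limma adjusted p = 0.374) after 30 min, when glucose libraries held 8.93 and 6.64 RPKM and glycerol libraries 2.15 and 4.41. For *MEP1* it lay between -0.03 and 0.00 at all 3 times, with intervals between -0.36 and 0.34. The glycerol pH 8.0 course has its own set of libraries, so carbon source and library set cannot be told apart.

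**Figure D3:**
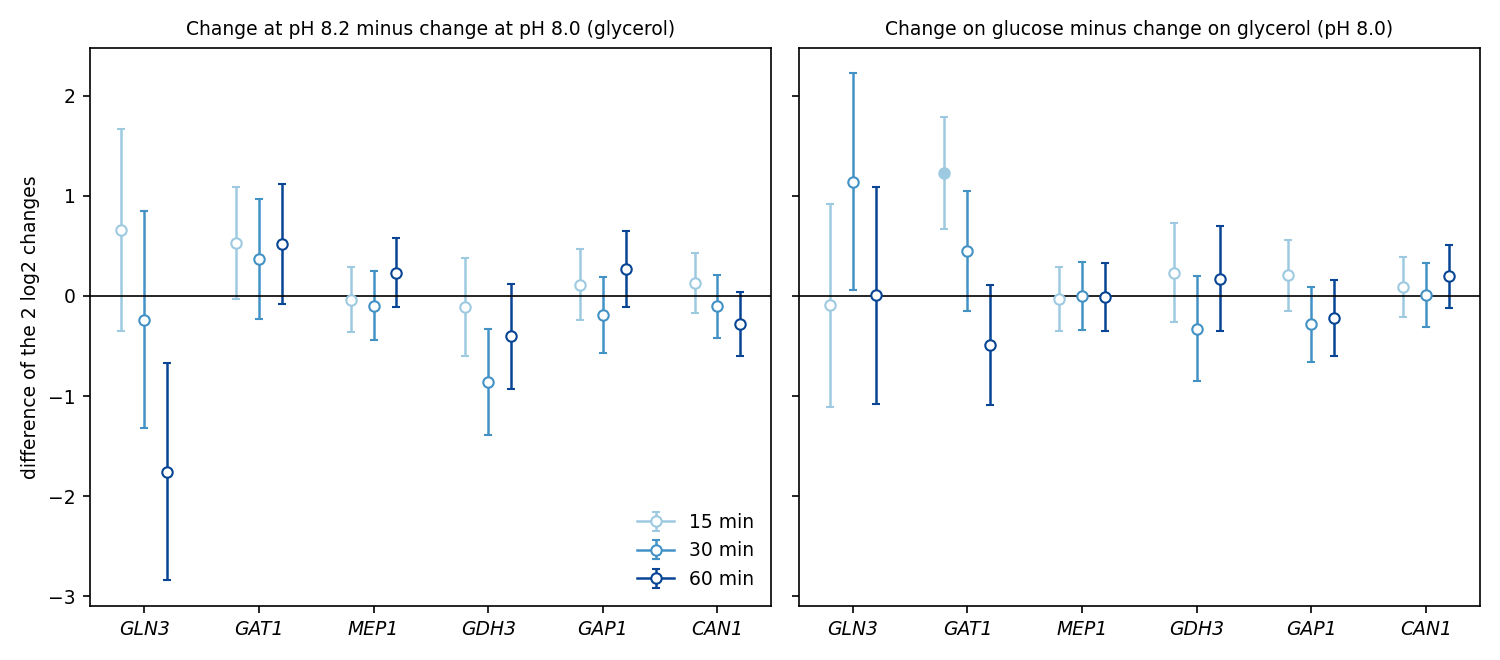
Difference of the log2 changes from time zero for each gene after 15, 30 and 60 min, with bars for the 95% interval of the fit: pH 8.2 minus pH 8.0 on glycerol (left) and glucose minus glycerol at pH 8.0 (right). The only filled mark, which passed the adjusted p, is *GAT1* on glucose at 15 min (1.23), and the mark of *GLN3* at pH 8.2 after 60 min (-1.76) did not pass.

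Reads were not told apart by strand, and none of the 6 gene models overlaps a neighbouring one. *GLN3* shares its upstream region of 1271 bp with *MEP2*, the gene of another ammonium permease, which is read in the opposite direction. *MEP2* was scarcely read, at 3.08 and 3.52 RPKM at time zero of the glycerol pH 8.0 course and at 4.71 and 9.49 on glucose. It was called lower on glycerol at pH 8.0 after 15 min (-1.05, SE 0.23, limma adjusted p = 0.00101) and at all 3 times on glucose (-1.20, -1.45 and -1.31), and it was not called at pH 8.2. The gene on the other side of *GLN3*, PAS_chr1-4_0396 (145 bp), was called in 0 of 9 comparisons, with log2 changes from -0.85 to 0.0094.

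*GAT1* has *HSP12*, known in *S. cerevisiae* as a stress-induced membrane protein gene, 618 bp upstream on the same strand. *HSP12* rose in all 9 comparisons, by a log2 value of 2.51 (glucose, 60 min, SE 0.33, limma adjusted p = 9.16e-06) to 5.95 (pH 8.2, 30 min, SE 0.33, limma adjusted p = 4.48e-11). On the other side, 42 bp away, the gene of C4R8G0 was called lower at 15 min in all 3 courses (-1.10, -1.41 and -1.89) and after 30 min at pH 8.2 and on glucose (-1.11 and -1.16). *CAN1* is divergent from *EFM5* (754 bp), which was called higher after 15 min on glycerol (1.17 and 1.18). Its other neighbour, the gene of C4QYY5 (57 bp), was called in 0 of 9 comparisons (-0.88 to -0.11).

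Downstream of *MEP1*, 295 bp away on the same strand, lies PAS_chr2-2_0392, which went the other way. It was called higher at pH 8.2 after 60 min, from 1024 and 1231 RPKM to 2618 and 2774 (log2 change 1.26, SE 0.11, limma adjusted p = 2.90e-08). In the other 8 comparisons it gave 0.26 to 0.94, under 2-fold. PAS_chr2-2_0388, divergent from *MEP1* at 1887 bp, was called in 0 of 9 (-0.39 to 0.63). The genes on both sides of *GDH3* and *GAP1* were called in 0 of 9 comparisons, with log2 changes between -0.34 and 0.60.

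The genes most like each member were named by Pearson's r of the 12 group means of log2(RPKM + 1), as a description over groups that share time zero libraries and depth. Closest to *MEP1* was *GDH3* (r = 0.97), and for *GDH3* it was *PRY3*, a gene of unknown function (0.98), followed by *MEP1* (0.97). Closest to *GLN3* was *CCC1*, described as a putative vacuolar iron and manganese transporter gene (0.97), followed by the multidrug transporter gene *QDR3* (0.95) and *GDH3* (0.95). *CCC1* also differed between the 2 libraries of pH 8.2 at 60 min, with 73.1 RPKM in the first and 13.6 in the second, the same order as for *GLN3*. For *GAT1* the closest were *TPO1*, a polyamine transporter gene (0.98), and *CST26* (0.98). For *CAN1* they included *GLT1* (0.96), the glutamate synthase gene, and *FCY2* (0.94), a purine and cytosine permease gene, and for *GAP1* they were PAS_chr2-1_0057, PAS_chr3_0877 and *SOK2* (0.95 each). Among the 6 genes, r lay between 0.89 and 0.97 for each pair of *GLN3*, *GAT1*, *MEP1* and *GDH3*, and was lowest for *GAT1* with *CAN1* (0.56).

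The 28 other genes of nitrogen use that the annotation describes did not move as a block. Like the 6 genes, they all come from the genes that the authors called in at least 1 condition on these same libraries. That choice largely fixed that they would be called here, so their counts are no independent evidence of change or of direction. Genes without a description were not searched. Over the 9 comparisons with time zero, 13 of the 28 were called upwards only, 12 downwards only, 1 in both directions and 2 in 0 comparisons. Of all genes tested, 4.67% to 8.28% were called in a single comparison, and the share called in at least 1 was not counted.

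Among the regulators the list held *URE2-2*, named for the factor that keeps Gln3 in the cytoplasm in *S. cerevisiae*. It rose after 60 min at pH 8.2 (1.75, SE 0.17, limma adjusted p = 1.27e-07) and on glucose (1.14, SE 0.17, limma adjusted p = 4.39e-05), from 264 and 338 RPKM to 923 and 1091 in the first case. On glycerol at pH 8.0 after 60 min it gave 0.96, under 2-fold. At 15 min it gave -0.25, -0.02 and -0.32 in the 3 courses, when *GLN3* and *GAT1* were called lower in each. At 30 min *URE2-2* gave -0.59 on glycerol at pH 8.0, a fall past the adjusted p but under 2-fold. It gave 0.04 at pH 8.2 and -0.19 on glucose at that time, and neither passed the adjusted p.

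Of 5 genes listed by name or description under ammonium and ammonia transport, 3 were called upwards only, *MEP2* downwards only and 1 in both directions. Of those named *ATO2*, the annotation describes PAS_chr1-1_0418 as an acetate transporter and PAS_chr2-1_0874 as a hypothetical protein. *ATO1*, described as a putative exporter of ammonia, went from 17.9 and 19.5 RPKM to 61.3 and 112 RPKM at pH 8.2 after 15 min (2.09, SE 0.19, limma adjusted p = 7.93e-08). It was called in 5 of 6 comparisons on glycerol and in 0 of 3 on glucose, where it gave 0.93, 0.61 and 0.70. The name *ATO2* is carried by 3 genes, of which PAS_chr2-1_0874 was called upwards in all 6 comparisons on glycerol (1.13 to 1.75) and in 0 of 3 on glucose (0.43 to 0.85). Another, PAS_chr1-1_0378, was called lower after 15 min at pH 8.2 (-1.07) and after 15 and 30 min on glucose (-1.49 and -1.06), and higher on glycerol after 60 min (1.12 and 1.03). The median of the list was 1.62 at pH 8.2 after 60 min and -0.12 on glucose after 15 min, beside 0.13 and -0.05 over all genes. Calls on glycerol alone are no test of a difference between carbon sources, and the differences in change of these genes are not reported here.

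In ammonium assimilation, *GLT1*, the gene of glutamate synthase, was lower in all 9 comparisons past the adjusted p and was called in 3, with -1.43 (SE 0.17, limma adjusted p = 8.77e-07) at pH 8.2 after 60 min. Of 7 genes of amino-acid and peptide uptake, 3 were called upwards only and 3 downwards only. *DIP5*, a permease gene for acidic amino acids, fell from 51.5 and 53.0 RPKM to 10.3 and 10.5 on glucose after 15 min (-2.23, SE 0.16, limma adjusted p = 2.15e-09). On glycerol, where its start is not given here, *DIP5* stood at 24.8 to 28.2 RPKM after 60 min. *OPT1*, an oligopeptide transporter gene, was called lower in 7 of 9, with -1.44 on glucose after 30 min.

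*MUP1* (PAS_chr2-1_0351), a methionine permease gene, moved the other way, from 127 and 130 RPKM to 483 and 486 on glucose after 30 min (1.91, SE 0.20, limma adjusted p = 4.2e-07). The list also holds another *MUP1* (PAS_chr3_0018) and *MUP3*, whose values are not given here. *HRK1*, a gene of a kinase that stabilizes amino-acid transporters and no transporter itself, rose by 1.34 (SE 0.09, limma adjusted p = 1.16e-09) on glycerol at pH 8.0 after 30 min. The median of the list stayed between -0.53 and 0.24 in the 9 comparisons, beside -0.08 to 0.13 over all genes.

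Of 14 genes for other nitrogen sources, 6 were called upwards only and 7 downwards only. C4QYG9, a peroxisomal amine oxidase, rose in all 9 comparisons, most at pH 8.2 after 60 min (3.28, SE 0.17, limma adjusted p = 1.33e-11), from 2.34 and 2.86 RPKM to 31.4 and 36.7. *DUR3*, a urea and polyamine transporter gene, rose by 2.98 (SE 0.35, limma adjusted p = 1.89e-06) on glycerol at pH 8.0 after 30 min and gave 0.78 after 60 min. *GAD1*, the glutamate decarboxylase gene, rose by 2.25 (SE 0.16, limma adjusted p = 2.57e-09) at pH 8.2 after 15 min, and *NIT1*, a nitrilase gene, by 2.24 (SE 0.42, limma adjusted p = 0.000418) on glucose after 60 min. The 7 that fell are *FCY2*, the purine and cytosine permease gene, *UGA2*, which acts in the use of gamma-aminobutyrate, *SOA1*, a relative of the allantoate permease gene (-2.03 at pH 8.2 after 30 min), and *DAL1*, *DAL2*, *DAL4* and a *DAL5* (PAS_chr1-1_0287). The *DAL* genes serve the use of allantoin, and their largest fall was -1.36 (*DAL2*, glucose, 15 min). Another *DAL5* (PAS_chr1-1_0354) was called higher on glycerol at pH 8.0 after 60 min (1.04).

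**Figure D4:**
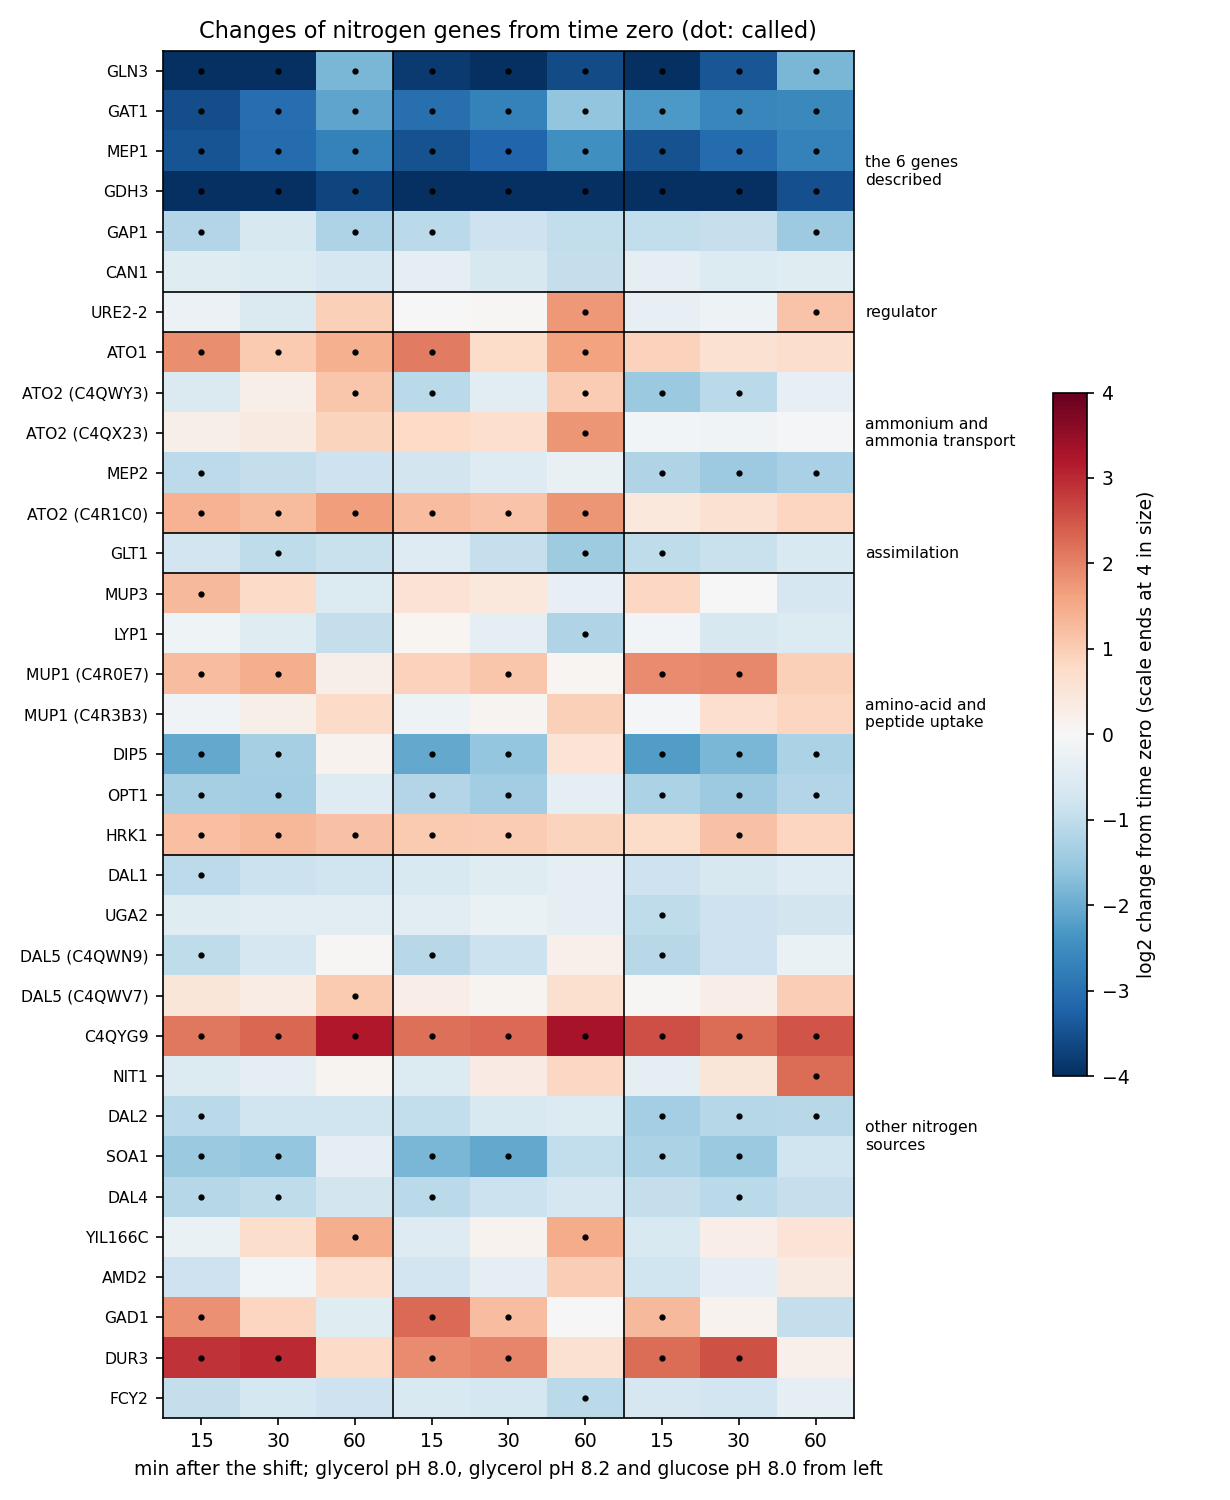
Log2 change from time zero (colour, its scale ends at 4 in size) of the 6 genes at the top and of the 28 other nitrogen genes in 5 lists, in 9 comparisons set in columns by course and minutes after the shift, with a dot where a gene was called changed. The top 4 rows are blue with dots throughout, while the lists below hold genes of both directions.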

How the data were processed

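RNA was measured in 26 libraries, grouped by the sample labels, and 0 value columns were left without a library. The deposited values are RPKM per gene, which the authors computed with SeqMonk after mapping single-end Illumina reads of poly-A libraries that do not keep the strand with Bowtie2 (local, sensitive mode) to the GS115 assembly (ASM2700v1), as the study's methods state. The versions of Bowtie2 and DESeq2, both named in the submitters' processing notes, are not given in the sources used here. A second deposited table holds the authors' log2 fold changes and p-values, which were not used, while its gene names and descriptions were. The RPKM steps give whole reads (to within 0.01 read), and these reads were used for depth alone.

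The fit took the 5034 of 5040 genes that reached 1 RPKM in 2 or more libraries. limma 3.58.1 in R 4.3.3 fitted 1 mean per group to log2(RPKM + 1) over all 26 libraries (14 residual degrees of freedom, spread moderated with a trend), after a test on simulated data, with Benjamini-Hochberg adjustment within each comparison. Fold changes are on that scale. A gene was called at an adjusted p below 0.05, a p below 0.01 and a log2 change of at least 1 in size; differences of differences, and the 2 glycerol courses at time zero, at the adjusted p alone. Alternatives changed the pseudocount, the filter, the scaling, the block, the trend, the baseline and the libraries.

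The 6 genes and the 5 lists were chosen with earlier results of these data known. Named beside the 6 are up to 4 genes a list with the largest change among those called (*FCY2*, *UGA2*, *SOA1* and the *DAL* genes were named after their values were seen), the neighbours, and for each gene the 3 most alike in pattern. Positions are 1-based, and all 5040 gene models match ASM2700v1. Sequences were not analysed here.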

Additional observations from a re-analysis of the deposited data

Results flagged for a closer look

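*GAP1* on glycerol at pH 8.0 after 15 min was looked at because 1 of the 4 libraries stood apart. The third held 109 RPKM and the others 78.7 to 81.8, a gap that takes up 0.898 of the range, above Dixon's 95% critical value for 4 samples. Chance alone exceeds it in about 1 in 20 groups, and 6 such groups, 1 for each gene, were tested. The same library was also the highest of the 4 for *MEP1* (28.9 RPKM), *GDH3* (36.8 RPKM) and *CAN1* (185 RPKM). The change of *GAP1* without this library is given above, and why it stood apart was not tested.

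*GAT1* differed between carbon sources by the test of the difference itself: its fall after 15 min was smaller on glucose than on glycerol by a log2 value of 1.23 (limma adjusted p = 0.0111), the only 1 of 36 differences in change tested over the 6 genes that passed. The difference was no longer past the adjusted p without either of the 2 libraries named above for it.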

How the results depend on the processing

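The falls of *GLN3*, *GAT1*, *MEP1* and *GDH3* from time zero kept their call in all 9 comparisons under each alternative run, leaving out each library included. Few counts of called genes among the 6 moved by more than 1.5 times. With a pseudocount of 5 the count between 15 and 60 min at pH 8.2 was 1 and not 3, and that between the glycerol courses at time zero was 1 and not 0. With all 4 glycerol libraries of time zero as the baseline, the pH 8.2 difference gave 1 after 30 min and 2 after 60 min, and not 0. Leaving out single libraries gave 0 to 1 for that difference after 60 min and 0 to 1 for the glucose difference after 15 min.

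Of 120 values of the 6 genes over 20 comparisons, the sign turned under at least 1 alternative in 26, of which 0 had been called. None of the 26 was a change from time zero. For the 4 changes from 15 to 60 min, *GAP1* on glycerol at pH 8.0 became 0.056 with the replicate number as a block and ranged from -0.11 to 0.051 when single libraries were left out. *GAP1* at pH 8.2 became -0.087 with median-ratio scaling and ranged from -0.031 to 0.23, *GLN3* at pH 8.2 from -0.72 to 1.17 and *GAT1* on glucose from -0.57 to 0.0018. Median-ratio scaling moved the median of all genes from 15 to 60 min by -0.12 to -0.19.

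At time zero, *GLN3* on glucose against glycerol became -0.016 with the replicate block. Between the glycerol courses, *GAP1* became 0.060 and *CAN1* 0.086 with the library-code block, and without single libraries *GDH3* ranged from -0.35 to 0.013 and *GAP1* from -0.24 to 0.028.

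The other 18 were among the 36 differences of differences. For pH 8.2 minus pH 8.0 after 15 min, *MEP1* became 0.0040 with a pseudocount of 5, *GDH3* 0.028 and *MEP1* 0.014 with the replicate block, *GAP1* -0.0021 with the library-code block and *CAN1* -0.047 with all 4 libraries of time zero. Without single libraries *GDH3* ranged from -0.37 to 0.14, *GAP1* from -0.022 to 0.25, *CAN1* from -0.0078 to 0.27 and *MEP1* from -0.21 to 0.14. After 30 min *GLN3* became 0.075 with a pseudocount of 5 and *GAT1* -0.16 with all 4 libraries, and *GLN3* ranged from -0.63 to 0.15, *CAN1* from -0.24 to 0.033 and *MEP1* from -0.21 to 0.018. After 60 min *MEP1* became -0.049 and *GAT1* -0.0078 with all 4 libraries. For glucose minus glycerol after 15, 30 and 60 min, *MEP1* became 0.037, 0.047 and 0.026 with a pseudocount of 5, 0.019 after 15 min with the replicate block and 0.043 after 30 min with median-ratio scaling. *CAN1* became -0.024 after 15 min with the library-code block, and *GLN3* -0.0079 after 60 min with median-ratio scaling. Without single libraries *MEP1* ranged from -0.15 to 0.083, from -0.12 to 0.11 and from -0.13 to 0.10 at the 3 times, *GLN3* from -0.21 to 0.029 after 15 min and from -0.11 to 0.12 after 60 min, *CAN1* from -0.049 to 0.064 after 30 min and *GDH3* from -0.0068 to 0.35 after 60 min. The cause was not tested.

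With the replicate block, the number of calls among the 6 genes was the same in all 20 comparisons (5 on glycerol at pH 8.0 after 15 min, for example). Same-numbered libraries deviated together, with r over 0.1, in 24 of 36 pairs, 12 of 12 on glucose (0.11 to 0.35), 8 of 12 at pH 8.2 and 4 of 12 on glycerol at pH 8.0. With 2 libraries in a group, both numbers give the same r by construction. The labels do not say which libraries share a culture, so whether the numbers pair the libraries was not settled.

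Counts over all genes were less stable for the differences of differences. For pH 8.2 minus pH 8.0 the counts after 15, 30 and 60 min, 0 in the main result, were 131, 3 and 30 with the replicate block, 2, 2 and 23 with the library-code block and 40, 372 and 353 with all 4 libraries of time zero; after 30 min 1 gene was called with a pseudocount of 0.1 or with median-ratio scaling, and leaving out single libraries gave up to 42, 41 and 298. For glucose minus glycerol the counts of 302, 65 and 297 became 574, 146 and 478 with the replicate block, 145 and 487 after 30 and 60 min with the library-code block, and as few as 92, 25 and 88 without single libraries. The glycerol courses at time zero differed in 832 genes, in 272 with the replicate block, 19 with the library-code block and as few as 186 without single libraries. Glucose against glycerol at time zero called 63 genes, and 40 without the second glucose library.

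With 2 libraries in 11 of 12 groups, a library that disagrees, as for *GLN3* at pH 8.2 after 60 min, sets the value. *GLN3* and *GAT1* rest on as few as 25 and 48 reads in stressed libraries, which limits the precision of their deepest falls.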
